A study of Mus musculus with 23 samples.

Results

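The WAVE regulatory complex and N-WASP are the best known activators of the Arp2/3 complex, the machine that starts new actin branches. Their mRNAs were followed in primary hippocampal neurons with and without *Nedd8*, the gene of a small ubiquitin-like modifier that is attached to cullins and other proteins. The 10 genes are *Wasf1*, *Wasf2* and *Wasf3* (WAVE1 to WAVE3), *Cyfip1*, *Cyfip2*, *Nckap1*, *Abi1*, *Abi2*, *Brk1* and *Wasl* (N-WASP). They were picked by name from the 56941 genes of the count tables, 33025 of which had a count in any library, and all 10 were found and passed the filter on low counts. The list was chosen by someone who had seen how CRE and RFP libraries differ, so the differences of these 10 genes between the groups are described with their intervals and no test is read from them.

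Both groups, controls included, came from newborn (P0) homozygous Nedd8cKO mice, in which CRE removes the floxed exons of *Nedd8*. The line was made with CRISPR/Cas9. The CRE group (12 libraries) received a lentivirus for CRE recombinase tagged with RFP on the first day in vitro, and the RFP group (11 libraries) received RFP alone. Both viruses used the Synapsin1 promoter, which directs CRE to neurons, though which cells expressed it was not tested here. Glia and any other cells in the dish are sequenced together with the neurons. RNA was extracted on day 12 per the labels, whereas the paper's Methods give a later day. Library names carry a pair of numbers, the first of which was taken for the culture (1 to 3). No source says so in words. On this reading each group holds only 3 cultures, and libraries with the same first number are not independent biological replicates. The main fit nevertheless treated every library as a replicate. Its p-values, standard errors (SE) and intervals, for single genes and for pathway genes alike, therefore rest on the spread between libraries, which may be partly technical. They do not measure the spread between cultures.

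The WAVE complex holds 1 WAVE, 1 CYFIP, 1 ABI, NCKAP1 and BRK1 protein. At rest the other subunits hold down the tail of WAVE, and active Rac bound to CYFIP frees it. The tail then brings actin and the Arp2/3 complex together. N-WASP is not part of this complex and acts in the same last step, after it has been opened by Cdc42 and membrane lipids. In neurons both activators act in growth cones, in dendrite branching and in dendritic spines, and WAVE1 is the WAVE protein best known from brain.

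Several of these genes are paralogs, so the sequences below show how far their reads could be mixed up. They are the last 90 coding bases of the canonical transcripts, up to and including the stop codon. In the WAVE genes this stretch includes the code for the acidic end of the tail that contacts the Arp2/3 complex. They were read from GENCODE M39 on GRCm39, in the last exon of each gene: *Wasf1* at chr10:40813710-40813799 (+), *Wasf2* at chr4:132923096-132923185 (+), *Wasf3* at chr5:146407098-146407187 (+), *Cyfip1* at chr7:55579821-55579910 (+) and *Cyfip2* at chr11:46087127-46087216 (-). Capitals mark bases that are identical in all 3 WAVE genes, or in both CYFIP genes, after alignment.
Wasf1: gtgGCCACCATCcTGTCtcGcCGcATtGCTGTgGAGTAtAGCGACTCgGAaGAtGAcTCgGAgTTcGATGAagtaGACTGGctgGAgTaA
Wasf2: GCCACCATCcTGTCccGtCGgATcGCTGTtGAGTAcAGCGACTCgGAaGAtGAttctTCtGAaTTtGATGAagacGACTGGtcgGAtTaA
Wasf3: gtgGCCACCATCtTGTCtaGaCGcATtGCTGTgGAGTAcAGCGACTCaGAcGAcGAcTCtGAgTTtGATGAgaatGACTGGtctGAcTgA
Cyfip1: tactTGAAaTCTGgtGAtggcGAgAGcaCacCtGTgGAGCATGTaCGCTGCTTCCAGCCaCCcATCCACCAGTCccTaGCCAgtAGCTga
Cyfip2: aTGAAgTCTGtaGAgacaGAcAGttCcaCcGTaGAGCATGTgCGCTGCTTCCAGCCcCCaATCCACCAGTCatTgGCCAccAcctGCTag

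In this conserved stretch *Wasf1* matched *Wasf2* at 82.8% and *Wasf3* at 80.0% of aligned bases, and the longest run shared by *Wasf1* and either of them was 17 bases. *Cyfip1* and *Cyfip2* matched at 71.3%, with a longest run of 14 bases. Over all annotated transcripts, none of the 10 genes shared a stretch of 50 bases with another of them. *Cyfip1*, *Cyfip2*, *Nckap1* and *Abi2* shared 0.61%, 0.21%, 0.73% and 0.24% of their stretches with genes outside the list, and the other 6 genes shared none. Genes on the opposite strand overlap 24.0% of the exon bases of *Cyfip1* (*Nipa2*), 16.9% of *Brk1* (*Fancd2os*), 8.3% of *Cyfip2* (*Fndc9*), 7.9% of *Wasf1* (*Cdc40*) and 4.7% of *Abi1* (*Pdss1*). The strand setting of the counting is not given in the sources used here, so reads of such partners cannot be told apart, and *Cyfip1* is the most exposed to this.

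The comparison used 21 libraries (11 CRE and 10 RFP) with 7430401 to 17112815 counts each. Nedd8Cre3-3 (1546796 counts) and Nedd8RFP3-2 (7635735 counts) were left out. The study's own count table leaves out the same libraries. The paper's Methods instead name Nedd8Cre1-3 and Nedd8Cre3-3 as removed, so the 21 libraries keep Nedd8Cre1-3 and lack Nedd8RFP3-2, unlike those of Methods. The gene *Nedd8* ran from 5.92 to 18.0 in CRE libraries, given as CPM (counts scaled to a common library size with TMM factors), and from 44.1 to 76.0 in RFP libraries, so it followed the labels. Nedd8Cre1-3, Nedd8Cre3-3 and Nedd8RFP2-4 stood apart, with 0.261%, 1.83% and 3.44% of counts in mitochondrial genes against 6.997% to 11.095% in the other 20 libraries. In these 3 libraries *Abi1* and *Abi2*, which have the lowest GC content of the 10 genes (41.1% and 43.2%), were the genes furthest below the median of their group. On the log2 scale *Abi1* stood at -2.11, -2.43 and -1.52 against that median, while *Wasf1* and *Wasf2*, with the highest GC content (53.3% and 54.2%), were close to it or above it in all 3. Not every gene followed its GC content: *Wasl* (44.3%) stood at -0.25, 0.59 and -0.55, *Cyfip2* (50.5%) at -1.34, -1.04 and 0.06, and *Brk1* (50.8%) at 0.35, -0.56 and 0.44 in Nedd8Cre1-3, Nedd8Cre3-3 and Nedd8RFP2-4. Nedd8Cre1-3 and Nedd8RFP2-4 are among the 21 libraries, so the differences of the 10 genes are also given without them.

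*Wasf1* (chr10:40759466-40814569, +) had by far the lowest ratio of CRE to RFP. Its level was 49.3 to 113 CPM in CRE (median 85.6) and 208 to 305 CPM in RFP libraries (median 280). Each of the 11 CRE values was thus lower than the lowest RFP value. The fitted CRE level was 30.6% of RFP (95% interval 25.5% to 36.8%), a log2 fold change of -1.71 (SE 0.13). It was -1.74 (SE 0.12) without the 2 libraries that stand apart. In all 23 libraries the groups came close to touching, since Nedd8Cre3-3 had 148.0 and Nedd8RFP3-2 had 150.5 CPM, and the log2 fold change was -1.55 (SE 0.15). Fewer cells of a type and less RNA per cell cannot be told apart in these bulk samples.

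*Wasf2* (chr4:132844495-132927067, +), the WAVE gene that most cell types use, went the other way. It ran from 22.4 to 57.2 CPM in CRE (median 37.3) and from 10.1 to 26.1 CPM in RFP libraries (median 19.5). In 9 of 11 CRE libraries it was above every RFP library, and the highest value came from Nedd8Cre1-3. The CRE level was 1.85-fold that of RFP (95% interval 1.46 to 2.34), with a log2 fold change of 0.89 (SE 0.17), and 0.81 (SE 0.15) without the 2 libraries. With 64 to 592 counts per library over all 23 it was the least abundant of the 3 WAVE genes.

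*Wasf3* (chr5:146320287-146410443, +), which like *Wasf1* is mainly a brain gene, had almost the same level in both groups. It ran from 143 to 186 CPM in CRE (median 161) and from 137 to 177 CPM in RFP libraries (median 155). The ranges overlapped almost fully. The log2 fold change was 0.06 (95% interval -0.10 to 0.23, from the spread between libraries). Changes beyond 0.93-fold and 1.17-fold lie outside that interval. The log2 fold change was 0.06 (SE 0.07) without the 2 libraries and 0.05 (SE 0.10) with counts summed per culture.

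Because these 3 genes moved apart, the make-up of the WAVE pool differed between the groups. Shares were taken within each library from CPM per kb of merged exons. *Wasf1* made up 72.1% ± 3.79 of the WAVE mRNA in RFP (SD, n = 10) and 41.4% ± 6.39 in CRE libraries (SD, n = 11). The *Wasf3* share was 25.8% ± 3.49 in RFP and 51.2% ± 7.22 in CRE, while its own CPM was almost the same. The *Wasf2* share was 2.13% ± 0.49 in RFP and 7.40% ± 1.71 in CRE. None of the 3 shares overlapped between the groups of the main set: the highest *Wasf1* share in CRE was 49.1% and the lowest in RFP 63.4%. The 3 shares of a library are parts of the same whole and come from the CPM values above. Their separation is therefore not further evidence of a difference. The summed level of the 3 genes was 94.0 ± 5.86 CPM per kb in RFP and 50.3 ± 5.15 in CRE libraries. In all 23 libraries the *Wasf1* shares overlapped, with Nedd8Cre3-3 at 61.7% and Nedd8RFP3-2 at 57.2%, and so did those of *Wasf3* (30.5% and 41.0% in the same libraries).

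**Figure D1:**
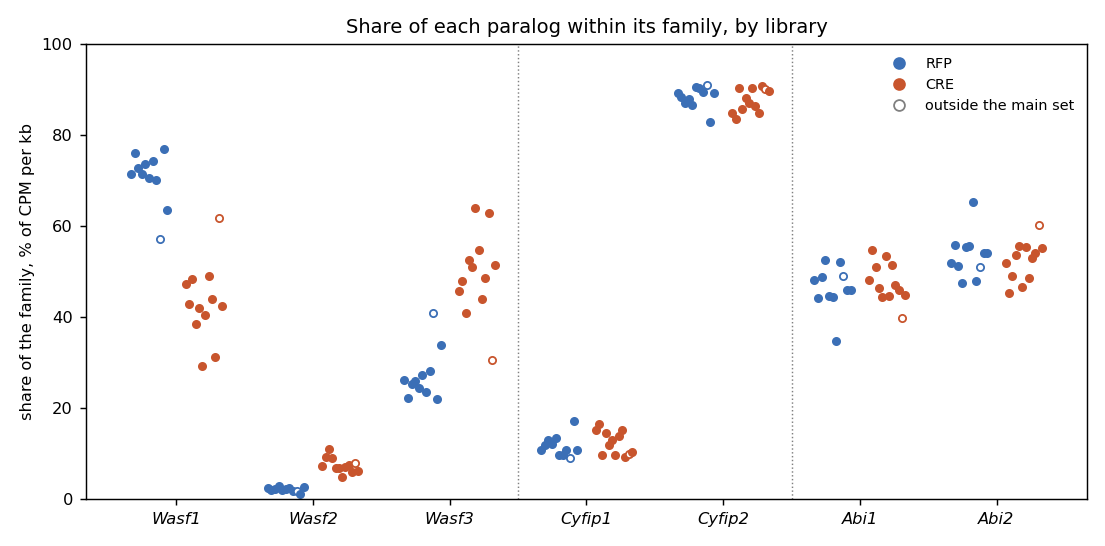
Share of each paralog in the summed CPM per kb of its family (%, y axis) for each of 23 libraries, RFP blue and CRE orange, open points outside the main set. The WAVE shares of the main set separate by group (*Wasf1* 72.1% in RFP and 41.4% in CRE on average), whereas the CYFIP and ABI shares overlap.

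The CYFIP and ABI families behaved differently in this respect. *Cyfip2* held 88.1% ± 2.27 of the CYFIP mRNA in RFP (n = 10) and 87.4% ± 2.58 in CRE libraries (n = 11), and *Abi2* held 53.9% ± 5.01 and 51.6% ± 3.72 of the ABI mRNA. The ranges of both shares overlapped between the groups. The log2 fold changes of the members of each pair were accordingly close to each other.

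**Figure D2:**
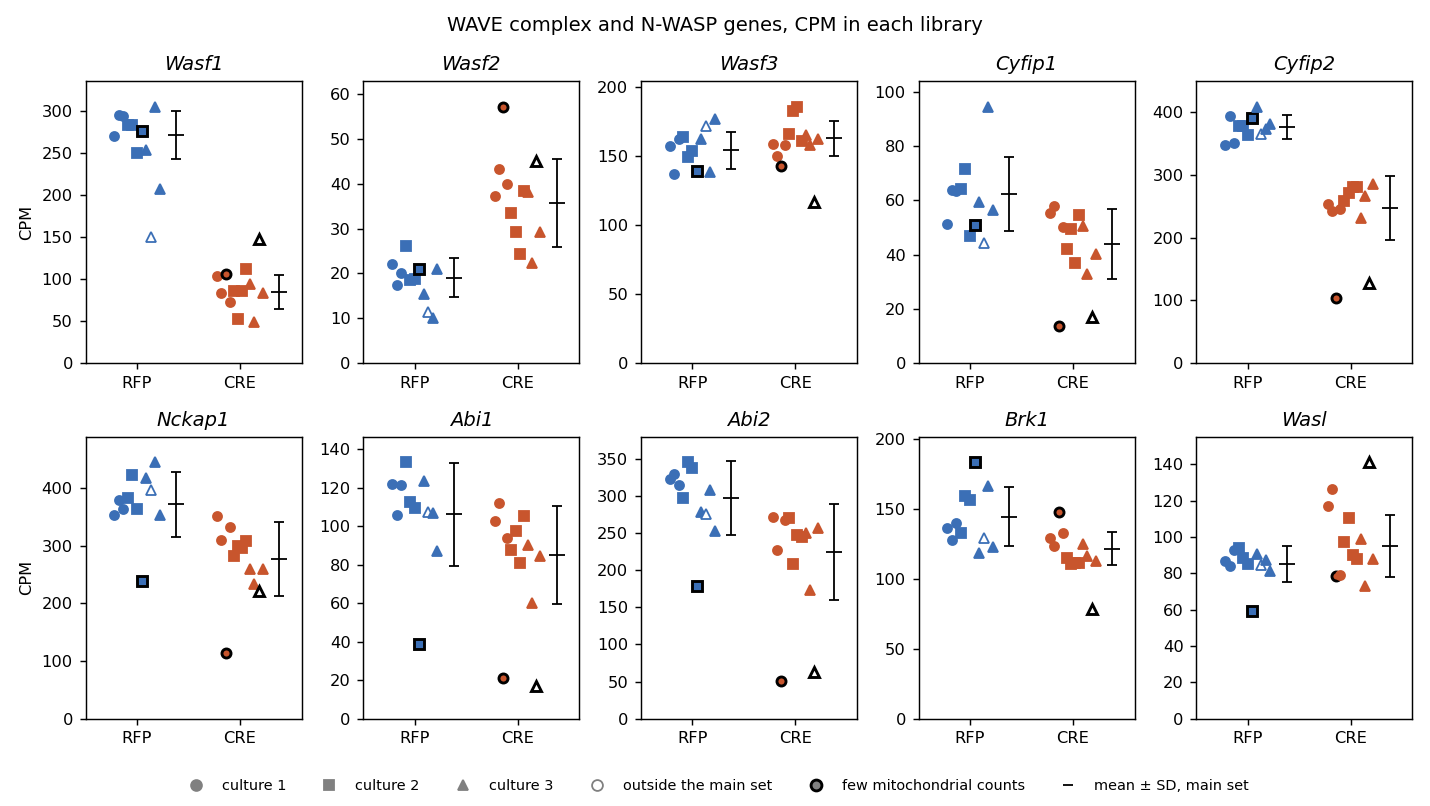
CPM of the 10 genes (y axes, each from 0) in RFP (blue) and CRE (orange) libraries, with shapes for the cultures, open points for the 2 libraries outside the main set, black rims for the 3 libraries with few mitochondrial counts, and bars for mean ± SD of the main set. *Wasf1* and *Cyfip2* separate completely, and the black-rimmed points are far below the rest for *Abi1* and *Abi2*.

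*Cyfip2* (chr11:46084550-46203686, -), the CYFIP gene that prevails in neurons and takes up the Rac signal, was the other gene whose groups did not overlap. It ran from 104 to 285 CPM in CRE (median 258) and from 347 to 408 CPM in RFP libraries (median 378). The lowest value came from Nedd8Cre1-3, and the other CRE libraries began at 231 CPM. The CRE level was 64.8% of RFP (95% interval 54.5% to 77.1%), with a log2 fold change of -0.63 (SE 0.12), and -0.54 (SE 0.06) without the 2 libraries. *Cyfip2* stayed below every RFP library in all 12 CRE libraries when all 23 were used.

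*Cyfip1* (chr7:55491479-55582381, +), its widely expressed paralog, which also binds the translation factor eIF4E, was much less abundant. It ran from 13.6 to 57.9 CPM in CRE (median 49.4) and from 46.9 to 94.5 CPM in RFP libraries (median 61.4). In 5 of 11 CRE libraries it was below every RFP library. The log2 fold change was -0.52 (SE 0.18), and -0.45 (SE 0.12) without the 2 libraries. The highest value of the gene, 94.5 CPM in Nedd8RFP3-3, stood apart from the other RFP libraries, and without that library the log2 fold change was -0.44 and no longer past the threshold.

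*Nckap1* (chr2:80330803-80411884, -), the scaffold that pairs with CYFIP, ran from 114 to 352 CPM in CRE (median 296) and from 239 to 445 CPM in RFP libraries (median 372). The lowest CRE value was in Nedd8Cre1-3 and the lowest RFP value in Nedd8RFP2-4. Without these libraries the 10 CRE values (234 to 352 CPM) were all below the 9 RFP values (354 to 445 CPM), though the closest 2 were almost equal. In those 19 libraries 4.04% of all genes had CRE ranges wholly below RFP. The log2 fold change was -0.45 (SE 0.14), and -0.42 (SE 0.08) without them.

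The ABI proteins join WAVE to NCKAP1 and carry the site through which Abl kinases act. *Abi1* (chr2:22830083-22930341, -) ran from 21.3 to 112 CPM in CRE (median 90) and from 38.8 to 133 CPM in RFP libraries (median 111). *Abi2* (chr1:60448647-60520827, +) ran from 50.3 to 272 CPM in CRE (median 248) and from 179 to 346 CPM in RFP libraries (median 312). For both genes the lowest value of each group was in Nedd8Cre1-3 and Nedd8RFP2-4. Their log2 fold changes were -0.34 (SE 0.21) and -0.42 (SE 0.19), neither past the threshold. Without the 2 libraries they were almost the same in size, -0.33 and -0.38, with SEs of 0.10 and 0.08, and both passed it. Both genes thus fell on different sides of the threshold with and without the 2 libraries.

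*Brk1* (chr6:113581600-113593912, +) encodes the smallest subunit. It ran from 110 to 147 CPM in CRE (median 116) and from 118 to 183 CPM in RFP libraries (median 138), with 6 of 11 CRE libraries below every RFP library. Its highest values in both groups came from Nedd8Cre1-3 and Nedd8RFP2-4, the reverse of the ABI genes. The log2 fold change of -0.27 (SE 0.09) was the smallest of the genes that passed the threshold, and it was -0.26 (SE 0.07) and again past it without both of these libraries. It was no longer called without any one of Nedd8RFP2-2, Nedd8RFP2-3, Nedd8RFP2-4 or Nedd8RFP3-3 (-0.25, -0.26, -0.21 and -0.25).

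*Wasl* (chr6:24613804-24665091, -), the N-WASP gene, ran from 72.8 to 127 CPM in CRE (median 90.1) and from 59.5 to 94.2 CPM in RFP libraries (median 87.0). In 5 of 11 CRE libraries it was above every RFP library, and its spread was wider in CRE (SD 16.99) than in RFP (SD 9.80). The log2 fold change was 0.15 (95% interval -0.08 to 0.37, from the spread between libraries). A fold below 0.95 or above 1.29 lies outside that interval. Without the 2 libraries the log2 fold change was 0.12 (SE 0.09).

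**Figure D3:**
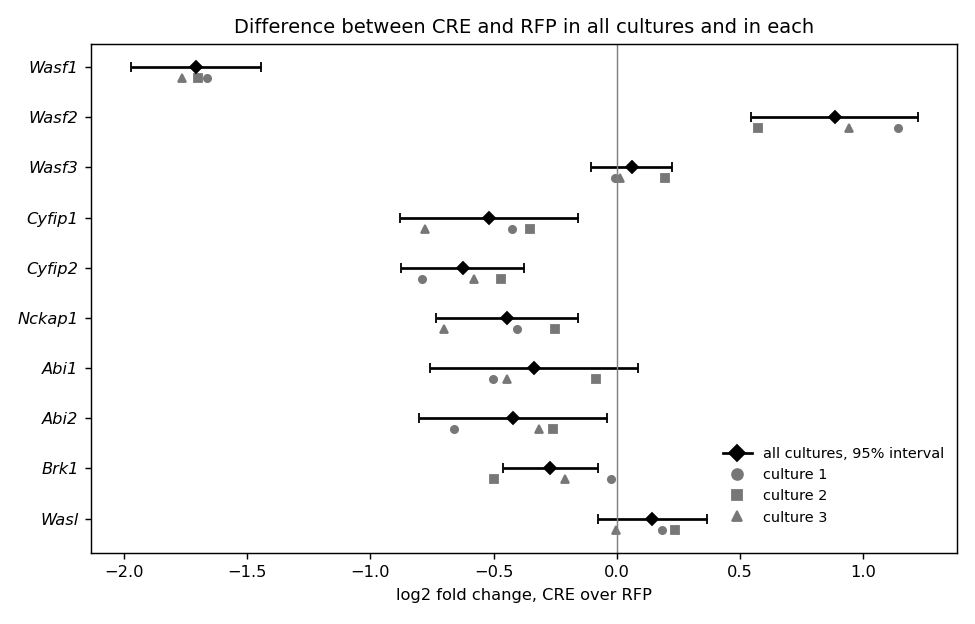
Log2 fold change of CRE over RFP (x axis) for the 10 genes in the 21 libraries, with 95% intervals as bars. Small grey shapes give the value for each of the 3 culture numbers, which are assumed to mean the same culture in both groups. Intervals of *Wasf3*, *Wasl* and *Abi1* include 0, and the 3 culture values of *Wasf1* lie between -1.77 and -1.66.

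With a threshold of 0.05 on the adjusted p (edgeR, quasi-likelihood, Benjamini-Hochberg over 14488 genes), 6 of the 10 genes were called. Of all genes tested, 30.2% were called. *Wasf1*, *Cyfip1*, *Cyfip2*, *Nckap1* and *Brk1* were the 5 called lower, against 13.8% of all genes, and *Wasf2* was the 1 called higher, against 16.4%. The genes had been chosen with this contrast known, so nothing is read from these counts. Ranges without overlap occurred for 2 of the 10 genes, both with CRE below RFP. Of all genes 4.72% had such ranges, 2.08% with CRE below and 2.64% with CRE above, and 3.34% in all 23 libraries, where *Wasf1* and *Cyfip2* were again without overlap. The median log2 fold change was -0.38 over the 10 genes and 0.02 over all genes. Without Nedd8Cre1-3 and Nedd8RFP2-4, 8 of the 10 were called, *Abi1* and *Abi2* in addition, with 38.1% of all genes called. Without culture 2 or culture 3 only *Wasf1*, *Wasf2* and *Cyfip2* of the 10 were called, with 14.3% and 22.8% of all genes called in these fits.

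For CRE against RFP libraries of the same first number, the log2 fold change of *Wasf1* was nearly constant, at -1.66, -1.70 and -1.77 for cultures 1, 2 and 3. That a number means the same culture in both groups is assumed here. Over all genes, deviations from the group mean hardly correlated between CRE and RFP libraries of the same number (0.03, 0.04 and 0.14). The highest correlations with another number were 0.16, 0.05 and 0.05. *Wasf2* was at 1.14, 0.57 and 0.94, and *Cyfip2* at -0.79, -0.47 and -0.58. *Nckap1* (-0.41, -0.25 and -0.70), *Cyfip1* (-0.43, -0.35 and -0.78), *Abi1* (-0.50, -0.09 and -0.45) and *Abi2* (-0.66, -0.26 and -0.32) were lower in CRE in every culture. Among the 6 called genes *Brk1* varied most relative to its size, from -0.03 in culture 1 to -0.50 in culture 2. The test of whether the CRE difference itself varied among cultures did not use the choice of the genes. It called 0 of the 10 (lowest p = 0.11 unadjusted, *Brk1*; adjusted p of 0.98 to 0.99 with edgeR), with 0 of them at an unadjusted p under 0.05 and 0.00582% of all genes called. Cultures also did not differ detectably among RFP libraries alone. There edgeR called 0 of the 10 (adjusted p 0.78 to 0.98, none at an unadjusted p under 0.05), against 0.542% of all genes.

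Levels of different genes were compared as CPM per kb of merged exons. In RFP libraries *Brk1* was highest (94.6 ± 13.9), followed by *Wasf1* (67.9 ± 7.15), *Nckap1* (39.1 ± 5.92), *Cyfip2* (30.9 ± 1.55), *Abi2* (28.8 ± 4.83), *Abi1* (25.3 ± 6.40), *Wasf3* (24.1 ± 2.05), *Wasl* (13.6 ± 1.56), *Cyfip1* (4.19 ± 0.91) and *Wasf2* (1.99 ± 0.45; all SD, n = 10). *Brk1*, *Wasf1*, *Wasf3*, *Wasl* and *Cyfip1* were separate from the next gene in this order, and the neighbours from *Nckap1* down to *Wasf3* overlapped. In CRE libraries the mean of *Wasf1* (21.1 ± 5.04, n = 11) came after those of *Brk1*, *Nckap1*, *Wasf3* (25.5 ± 1.96) and *Abi2*. Its range (12.3 to 28.1) overlapped those of *Nckap1*, *Wasf3* and *Abi2*. The annotation lists many transcripts of these genes. With the length of the longest transcript instead, the order of the means in RFP libraries was the same. *Brk1*, *Wasf1* and *Wasl* then overlapped the next gene, and in CRE libraries the mean of *Wasf1* also came after that of *Cyfip2*.

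**Figure D4:**
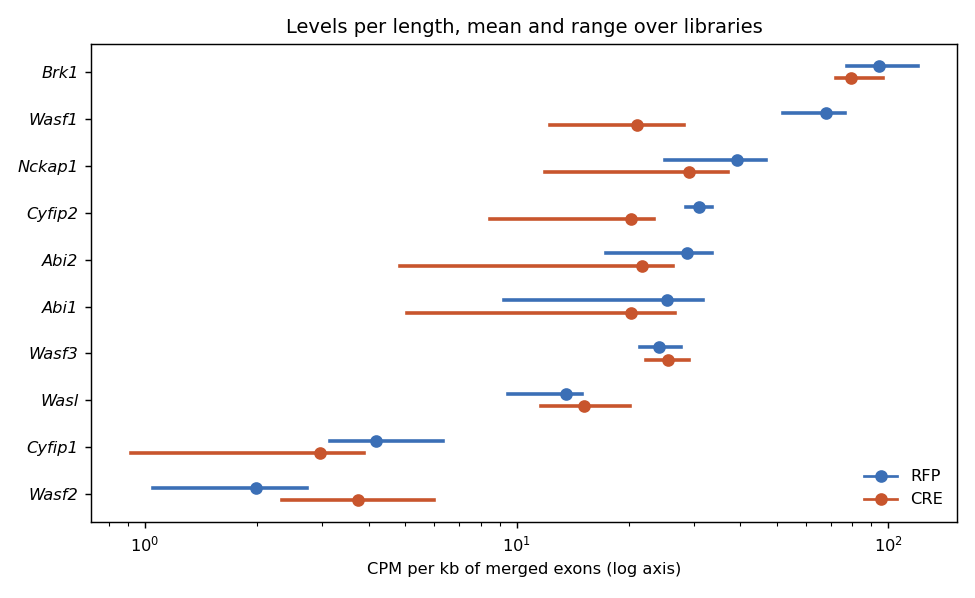
Mean (points) and range (lines) of CPM per kb of merged exons (x axis, log scale) over 10 RFP (blue) and 11 CRE (orange) libraries, genes in the order of the RFP means. *Wasf1* is the second highest gene in RFP and among the middle genes in CRE, with no overlap of its ranges.

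Residual *Nedd8* mRNA differed among CRE libraries, so each gene was set against it over the 11 CRE libraries (log2 CPM, 10 relations, two-sided permutation tests of 100000 resamples). *Nedd8* was counted over the whole gene, not only the floxed exons, and in all cells of the dish. Its level is therefore not a measure of the deletion in neurons alone. *Wasf1* had a Pearson r of 0.002 (p = 0.99) and a Spearman rho of -0.10 (p = 0.77). The r became 0.40 without Nedd8Cre1-1 and Nedd8Cre2-1, the libraries furthest from the median of *Nedd8*. The strongest relation was that of *Wasl* (r = -0.48, p = 0.13; rho = -0.48, p = 0.14; r = -0.32 without the same libraries). After adjustment over the 10 relations all permutation p-values were 0.97 or above for r and 0.86 or above for rho. No relation was detectable at this number of libraries. In all 12 CRE libraries *Wasl* reached r = -0.70 (permutation p = 0.0074, adjusted 0.074), and rho was -0.60 (permutation p = 0.043, adjusted 0.43). The r fell to -0.32 without Nedd8Cre3-3 and Nedd8Cre1-1, so it rested on these libraries. *Brk1* had r = 0.71 in the 12 libraries (permutation p = 0.035, adjusted 0.17), with rho = 0.39 (permutation p = 0.22, adjusted 0.87), and r = 0.31 without the same libraries.

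Among 14478 other genes, those whose log2 CPM was most like that of *Wasf1* over the 21 libraries were *Cplx2* (r = 0.98), a regulator of vesicle fusion, *Camk2a* (r = 0.98), a synaptic kinase, *Neurod6* (r = 0.97), a transcription factor of pyramidal neurons, *Dscam* (r = 0.96), an adhesion molecule, and *Prkce* (r = 0.96), a kinase. All 5 were lower in CRE, with log2 fold changes from -1.99 (*Camk2a*) to -0.90 (*Dscam*), so these r values include the difference between the groups. *Camk2a* and *Neurod6* are also among the glutamatergic markers below. After the mean of each group had been taken out, the closest included *Hpca* (r = 0.90), *Epn2* (0.88), *Mdga1* (0.87) and *Cacna1g* (0.86), which are different genes from the first 5. *Hpca* encodes a calcium sensor of hippocampal neurons, *Epn2* an endocytic adaptor, *Mdga1* a synaptic adhesion protein and *Cacna1g* a calcium channel. These correlations describe the libraries, which share depth and composition effects, and have no test.

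Marker genes of the cell types that such a dish can hold were summed by type. Only the glutamatergic sums were without overlap between the groups. Calls of single markers stand beside 30.2% of all genes called, and only 2 microglial and 0 endothelial markers were tested. The 5 glutamatergic markers summed to 660.0 to 1408 CPM in CRE and 1936 to 3862 CPM in RFP libraries, without overlap, and edgeR called 4 lower (*Slc17a7*, *Camk2a*, *Neurod2* and *Neurod6*) and 1 higher (*Slc17a6*). The 6 general neuronal markers summed to 1948 to 4426 CPM in CRE and 4407 to 5636 CPM in RFP (*Rbfox3*, *Map2*, *Tubb3* and *Syt1* called lower), and the 5 GABA markers to 650 to 1527 and 864 to 1710 CPM (*Slc32a1* called higher). The 7 astrocyte markers summed to 1466 to 4699 and 3511 to 7619 CPM (*Slc1a2*, *Aldh1l1*, *Aldoc* and *S100b* called lower) and the 7 oligodendrocyte lineage markers to 424.0 to 1909 and 646 to 1866 CPM (5 called lower, among them *Pdgfra*, *Cspg4*, *Olig2* and *Sox10*). The 5 mesenchymal markers spanned 12.4 to 232 CPM in CRE and 14.8 to 104 CPM in RFP (*Pdgfrb* called higher). The 7 microglial markers reached at most 7.70 CPM in CRE and 6.56 CPM in RFP libraries, with *Cx3cr1* at 0 in every CRE library and *Tmem119* called higher, and the 4 endothelial markers at most 7.28 and 3.09 CPM, with *Cldn5* at 0 in every RFP library. Single markers are named after their values were seen. The part of the markers' differences in those of *Wasf1*, *Wasf2* or *Cyfip2* was not tested.

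The partners of the complex were taken from 8 lists with 86 genes outside the 10, of which 83 were tested and 25 called (12 higher and 13 lower, 30.1% of those tested beside 30.2% of all genes). All 25 were also called without Nedd8Cre1-3 and Nedd8RFP2-4, with 38.1% of all genes called there, while 12 of the 83 were called without culture 2, with 14.3% of all genes. The Arp2/3 complex, the target of both activators, had 1 of 10 subunits higher and 2 lower, with a median log2 fold change of -0.12 (0.02 over all genes). *Arpc1b* rose from 6.88 ± 2.60 CPM in RFP to 20.4 ± 9.67 in CRE (log2 fold change 1.54, SE 0.25, adjusted p = 3.0e-05), above every RFP library in 10 of 11. The structural subunit *Arpc5* fell from 214 ± 21.5 to 160.0 ± 30.5 CPM (-0.44, SE 0.11, adjusted p = 0.0026), and *Actr3b*, the brain paralog of the subunit Arp3, from 80.2 ± 18.6 to 56.3 ± 12.6 CPM (-0.53, SE 0.14, adjusted p = 0.0053; SD, n = 10 and 11 in all of these). The blood cell paralogs *Was*, *Abi3* and *Nckap1l* had 0 to 3, 0 to 6 and 0 to 38 counts and were not tested.

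Of the 8 other activators of the Arp2/3 complex 2 were called, both higher, with a median of 0.11. *Whamm*, which acts on membranes of the secretory pathway, rose from 10.3 ± 4.08 to 20.4 ± 7.37 CPM (log2 fold change 0.97, SE 0.22, adjusted p = 0.0014). Cortactin (*Cttn*), which holds branches in place, rose from 113 ± 12.5 to 145 ± 14.0 CPM (0.34, SE 0.09, adjusted p = 0.0041). The 5 genes of the WASH complex, which works on endosomes, were between -0.06 and 0.20 and none passed the threshold.

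N-WASP partners split into genes that rose and genes that fell (2 and 2 of 10, median 0.12). *Wipf3* and *Wipf1*, which encode proteins of the WIP family that bind and stabilize N-WASP, fell. *Wipf3* went from 217 ± 39.3 to 97.1 ± 24.7 CPM (log2 fold change -1.18, SE 0.14, adjusted p = 5.3e-07) and was below every RFP library in all 11 CRE libraries. *Wipf1* went from 19.8 ± 5.03 to 11.2 ± 4.10 CPM (-0.84, SE 0.20, adjusted p = 0.0022). *Fnbp1* and *Trip10*, whose F-BAR proteins bend membranes and recruit N-WASP, rose, *Fnbp1* from 114 ± 9.95 to 195 ± 35.7 CPM (0.75, SE 0.10, adjusted p = 4.3e-06) and *Trip10* from 4.07 ± 2.24 to 8.32 ± 5.37 CPM (1.01, SE 0.35, adjusted p = 0.031). *Cdc42* was at -0.16 (SE 0.22) and did not pass the threshold.

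Upstream of the WAVE complex, 3 of 16 genes of Rac and its exchange factors were higher and 2 lower (median -0.11). The exchange factor genes *Vav3* (log2 fold change 1.74, SE 0.25, adjusted p = 6.8e-06) and *Prex2* (0.87, SE 0.25, adjusted p = 0.0089) were among those that rose. *Kalrn*, whose product kalirin acts on Rac in dendritic spines, fell from 202 ± 13.8 to 117 ± 13.9 CPM (-0.81, SE 0.09, adjusted p = 7.7e-08) without overlap, and *Dock4* fell as well (-0.58, SE 0.10, adjusted p = 7.3e-05). *Rac1* itself was at -0.11 (SE 0.09), short of the threshold.

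Among 10 partners and kinases of the WAVE complex 3 were lower and 1 higher (median -0.18). *Baiap2*, whose product IRSp53 links Rac and WAVE to membranes, fell from 86.9 ± 11.7 to 48.2 ± 23.3 CPM (log2 fold change -0.88, SE 0.18, adjusted p = 0.0006). *Cdk5r1* (-0.57, SE 0.14, adjusted p = 0.0034) and *Cdk5r2* (-0.64, SE 0.22, adjusted p = 0.028), the activators of Cdk5, a kinase that phosphorylates WAVE1, fell too. The kinase gene *Abl1* rose (0.35, SE 0.13, adjusted p = 0.046; 0.25 without the 2 libraries that stand apart). For both *Baiap2* and *Cdk5r2*, 10 CRE libraries lay below and 1 above every RFP library, and without these 2 libraries the log2 fold changes were -1.06 and -0.82.

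Of 8 inhibitors and branch removers 1 was higher and 3 were lower (median -0.12), all of them coronins, which bind actin filaments. *Coro2a* fell from 37.5 ± 4.28 to 15.2 ± 3.91 CPM (log2 fold change -1.33, SE 0.14, adjusted p = 6.1e-08), *Coro1a* by 0.55 (adjusted p = 0.015) and *Coro2b* by 0.41 (adjusted p = 0.0059) on the log2 scale. For *Coro1a* and *Coro2b* 1 CRE library was above every RFP library and 10 were below, and without the 2 libraries that stand apart the log2 fold changes were -0.69 and -0.51. *Coro1b*, which replaces the Arp2/3 complex at branches, rose (0.46, SE 0.14, adjusted p = 0.01). Of 21 genes for filament elongation, capping and turnover 2 were higher and 1 lower (median 0.06). *Vasp*, which speeds elongation, rose from 25.1 ± 5.15 to 54.4 ± 17 CPM (1.1, SE 0.15, adjusted p = 5.0e-06) and was above every RFP library in all 11 CRE libraries. The cofilin phosphatase gene *Ssh1* rose (0.66, SE 0.15, adjusted p = 0.0014), and the cofilin gene *Cfl1*, whose product severs filaments, fell from 1058 ± 101 to 811 ± 88.0 CPM (-0.40, SE 0.09, adjusted p = 0.00073) without overlap.

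**Figure D5:**
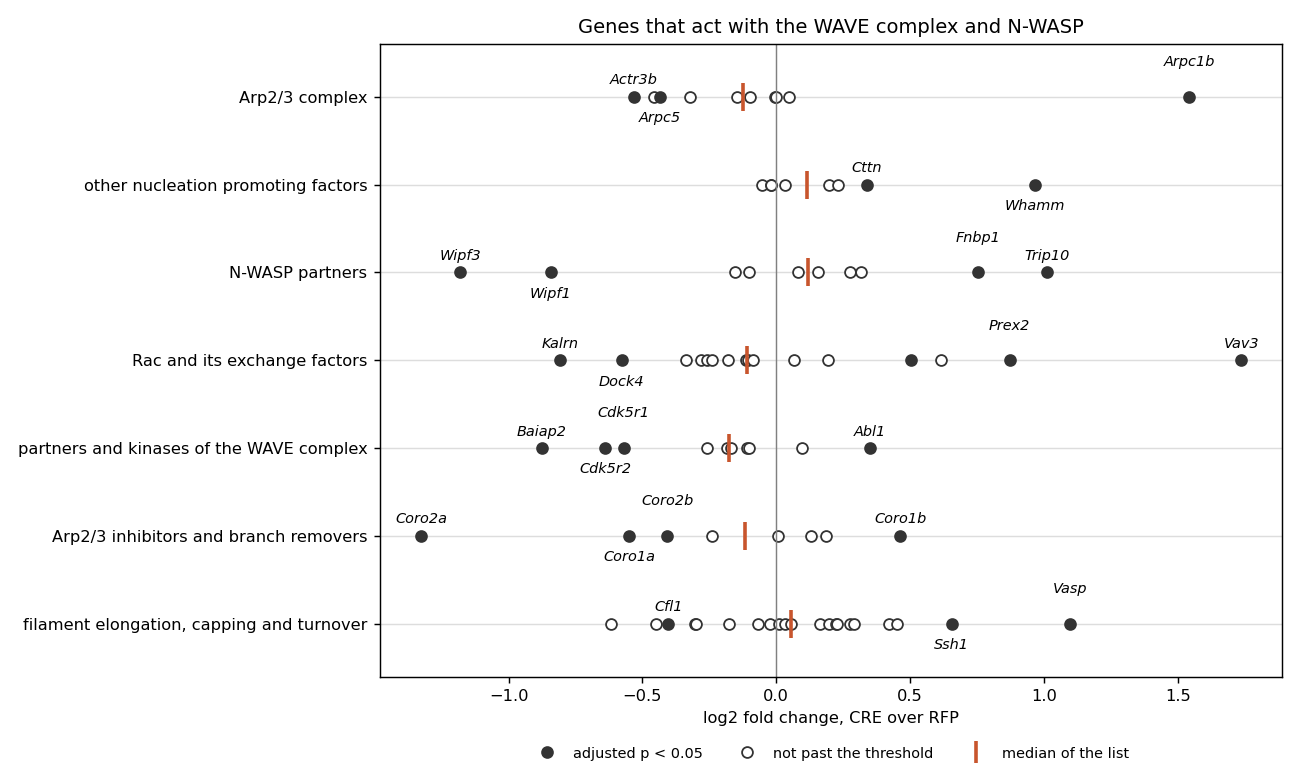
Log2 fold change of CRE over RFP (x axis) for the 83 tested genes of 7 lists (rows), filled where the adjusted p of edgeR was under 0.05, with the list median as an orange bar. Filled points lie on both sides of 0 in every list except the other activators of the Arp2/3 complex, and the medians lie between -0.18 and 0.12.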

How the data were processed

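RNA of 23 libraries was sequenced by the authors with Illumina Stranded mRNA Prep, and per the submitters' processing notes bcl2fastq 2.20.0.422, STAR 2.7.8a and featureCounts 1.5.0-p1 were used, with GRCm39 and Ensembl 110. The authors deposited raw counts per gene and library. Strand and multimapping settings are not given in the sources used here.

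Counts were fitted with edgeR 4.0.16 (filterByExpr, TMM, robust glmQLFit, glmQLFTest) in R 4.3.3 and adjusted over all genes tested. CPM was scaled over 23 libraries. Genes, lengths and sequences came from GENCODE M39. Methods and the study's count table name different removed libraries, and both sets were fitted. DESeq2 1.42.0, other scaling, no filter, replicate blocks, sums per culture and left-out libraries were alternatives. Scripts were tested on simulated data.

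The 10 genes, the pathway and marker lists and the tests were chosen with earlier results of these data known. The text names the 10 genes, *Nedd8*, up to 5 called genes per pathway list and the 5 genes most like *Wasf1* by each measure, and names *Rac1*, *Cdc42* and the WASH genes besides. Some genes that this rule takes in are not reported here.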

Additional observations from a re-analysis of the deposited data

Results flagged for a closer look

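Among the 10 RFP libraries, 4 of the 10 genes had a single value far from the rest (gap over range above 0.466). *Nckap1* (238.7 CPM, next 353.6), *Abi1* (38.8 CPM, next 87.2) and *Wasl* (59.5 CPM, next 81.1) were lowest in Nedd8RFP2-4, with 0.557, 0.512 and 0.623 of the range, and *Cyfip1* was highest in Nedd8RFP3-3 (94.5 CPM, next 71.5, 0.484 of the range). Chance alone marks about 1 in 20 groups. The CRE group, with 11 libraries, was not examined this way.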

How the results depend on the processing

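All 10 genes kept their direction under every alternative, *Wasf1* between -1.79 and -1.55, *Wasf2* between 0.71 and 1.11 and *Cyfip2* between -0.69 and -0.52, and these 3 stayed called. The count of called genes among the 10 (6) ran from 3 to 7 when a culture or library was left out, with 3 without culture 2 and 3 without culture 3. All genes called (4370) came to 6920 without the filter and to 2114 to 3730 without a culture. Calls in the pathway lists (25) came to 40 in the libraries left by Methods, 38 without Nedd8Cre1-3 and Nedd8RFP2-4, and 12 to 27 without a culture (12 without culture 2). Genes whose CRE difference varied among cultures (1) numbered 0 in all 23 libraries, 43 without the 2 libraries and 88 without the filter. Culture differences within RFP (84 genes) came to 238 in 11 libraries and 209 without Nedd8RFP2-4. By the longest transcript 2 neighbours in the order of levels were separate, against 5. With that length the shares of *Wasf2* (2.81% in RFP and 9.76% in CRE), *Cyfip2* (85.0% and 84.2%) and *Abi2* (59.5% and 57.4%) moved as well. *Abi2* was also called in the libraries left by Methods and without Nedd8Cre1-3 alone (-0.31), and *Abi1* and *Abi2* were called and *Brk1* was not with counts summed per culture. *Brk1* was not called without the filter, where the median log2 fold change of all genes was 0.14. The causes were not tested. Numbers did not pair libraries (correlation 0.03, 0.04 and 0.14 within cultures), and with culture number as a replicate block 6 of the 10 genes were called and 4267 genes in all, with library number 6 and 4235. The lowest count of any of the 10 genes was 25, for *Cyfip1* and *Abi1* in Nedd8Cre3-3, which is outside the main set. Summed over all 23 libraries *Wasf2* had the fewest counts (6853), below *Cyfip1* (13443).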

Other observations

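Without Nedd8Cre1-3 and Nedd8RFP2-4, 13 further genes of the pathway lists were called by edgeR, named here after their values were seen. In that fit 38.1% of all genes were called, against 30.2% in the 21 libraries, so the rise in calls was not particular to the lists. Higher in CRE were the actin binding genes *Dstn* (log2 fold change 0.27, adjusted p = 0.0071) and *Cfl2* (0.28, adjusted p = 0.012), the capping gene *Capza1* (0.55, adjusted p = 0.0035), the exchange factor gene *Arhgef6* (0.76, adjusted p = 0.0048), the N-WASP partner *Fnbp1l* (0.41, adjusted p = 0.0016) and the activator *Jmy* (0.24, adjusted p = 0.018). Lower were the Arp2/3 subunit gene *Actr2* (-0.41, adjusted p = 0.00041), *Rac3* (-0.47, adjusted p = 0.0037), *Arhgef7* (-0.29, adjusted p = 0.0038), *Cdk5* (-0.26, adjusted p = 0.015), *Capza2* (-0.40, adjusted p = 0.00079), the profilin gene *Pfn2* (-0.25, adjusted p = 0.023) and the cofilin phosphatase gene *Ssh3* (-0.73, adjusted p = 0.012). The capping paralogs *Capza1* and *Capza2* thus differed in direction.

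In the same 19 libraries the CRE difference of *Nckap1* varied among cultures at an unadjusted p of 0.0061 in edgeR, the lowest of the 10 genes, with an adjusted p of 0.30.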
